A study of Mus musculus with 2 samples.

Results

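The 10 genes described here, in chromatin of mouse femoral cartilage, encode proteins known to make, break down, carry or sense retinoic acid: the receptors Rara, Rarb, Rarg and Rxra, the synthesis enzymes Aldh1a2 and Aldh1a3, the breakdown enzymes Cyp26a1 and Cyp26b1, and the binding proteins Crabp1 and Crabp2. Open chromatin regions were assigned to them where they lay inside or within 50 kb of the gene in the GENCODE mouse release 21 annotation on mm10. Peaks of the 2 femur ends that overlapped by at least 1 bp were merged into regions, and 34 of 32388 regions met the rule. They held 28 of the 28257 proximal peaks and 30 of the 27958 distal peaks.

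The data came from ATAC-seq, in which a transposase cuts accessible DNA, on the cartilage at either end of the femur of E15.5 mouse embryos of strain FVBNJ. Per the paper, the tissue held every chondrocyte zone and also perichondrium. No treatment or mutation was used, and the labels of the groups differed only in the end of the bone. The ends were pooled separately, so a difference between libraries cannot be told apart from one between ends. Each pool took the right and left femurs of 1 litter, 8 animals on average, and 50000 cells went into a library. For each end, 2 biological replicates had been combined into 1 list of peaks by the authors, who kept those with an irreproducible discovery rate (IDR, a measure of how well replicates agree on a peak) below 0.05. The lists gave positions without heights, so that the spread between replicates could not be computed and no test was made between the ends. A peak missing from a list says that it did not pass the authors' threshold there, not that the chromatin was closed. In pooled cells, a site open in a few cells and a site weakly open in many cannot be told apart.

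Retinoic acid is made from vitamin A by retinol and retinal dehydrogenases and is destroyed by cytochrome P450 enzymes of the Cyp26 family. Its receptors bind DNA as pairs of a retinoic acid receptor (RAR) and a retinoid X receptor (RXR), on direct repeats of a 6-base unit, and several genes of the pathway, Rarb and Cyp26a1 among them, carry such repeats at their own promoters. In the limb bud it is known as a signal of the proximal side that Cyp26b1 clears from the distal side, and in cartilage it is known to hold back the formation of chondrocytes.

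Of the 34 regions, 23 were called in both femur ends, 5 only in the proximal end and 6 only in the distal end. Thus 11 regions, or 32.4% (95% Wilson interval 19.1 to 49.2), were called in 1 end only, against a background of 27.0% of all regions, and the interval includes the background. The 5 proximal-only regions stood against 14.1% of all regions and the 6 distal-only regions against 12.9%. By place, 7 regions lay within 1 kb of a start site of the gene itself, 10 lay elsewhere inside it, 11 lay within 1 kb of a start site of a neighbouring gene, and 6 lay in the remaining flanks. The 18 regions near any start site were 52.9% of the 34 (36.7 to 68.5), beside 42.5% of all regions. Rarb, the longest of the genes, held 9 of the 34. Without Rarb, 7 of 25 regions (28%) were called in 1 end only.

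The single-end calls were then followed by kind of region. Among the 7 regions at the genes' own start sites, 4 were called in both ends, 3 only in the distal end and none only in the proximal end. Of all 13774 regions within 1 kb of a start site, 12.2% were called in 1 end only, 1011 in the distal and 668 in the proximal end. The 3 distal-only regions were at Rxra, Crabp1 and an internal start of Rarg. All 5 proximal-only regions lay more than 1 kb from every start site, 3 in introns of Rarb, 1 downstream of Rxra and 1 upstream of Aldh1a3, and 14.7% of all proximal-only regions lay within 1 kb of a start site, so that 5 of 5 is near the background. Over the 16 regions more than 1 kb from every start site, 7 were called in 1 end only (43.8%, 23.1 to 66.8), against 38.0% of all such regions. None of the 11 single-end regions had a peak of the other end closer than 6190 bp. Regions are sparse, with a median of 2.07 per 100 kb of protein-coding gene window. The gaps of all single-end regions were not compared, so this distance does not set the 11 apart. The counts of regions are small, and the intervals on the shares cover counting error only.

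**Figure D1:**
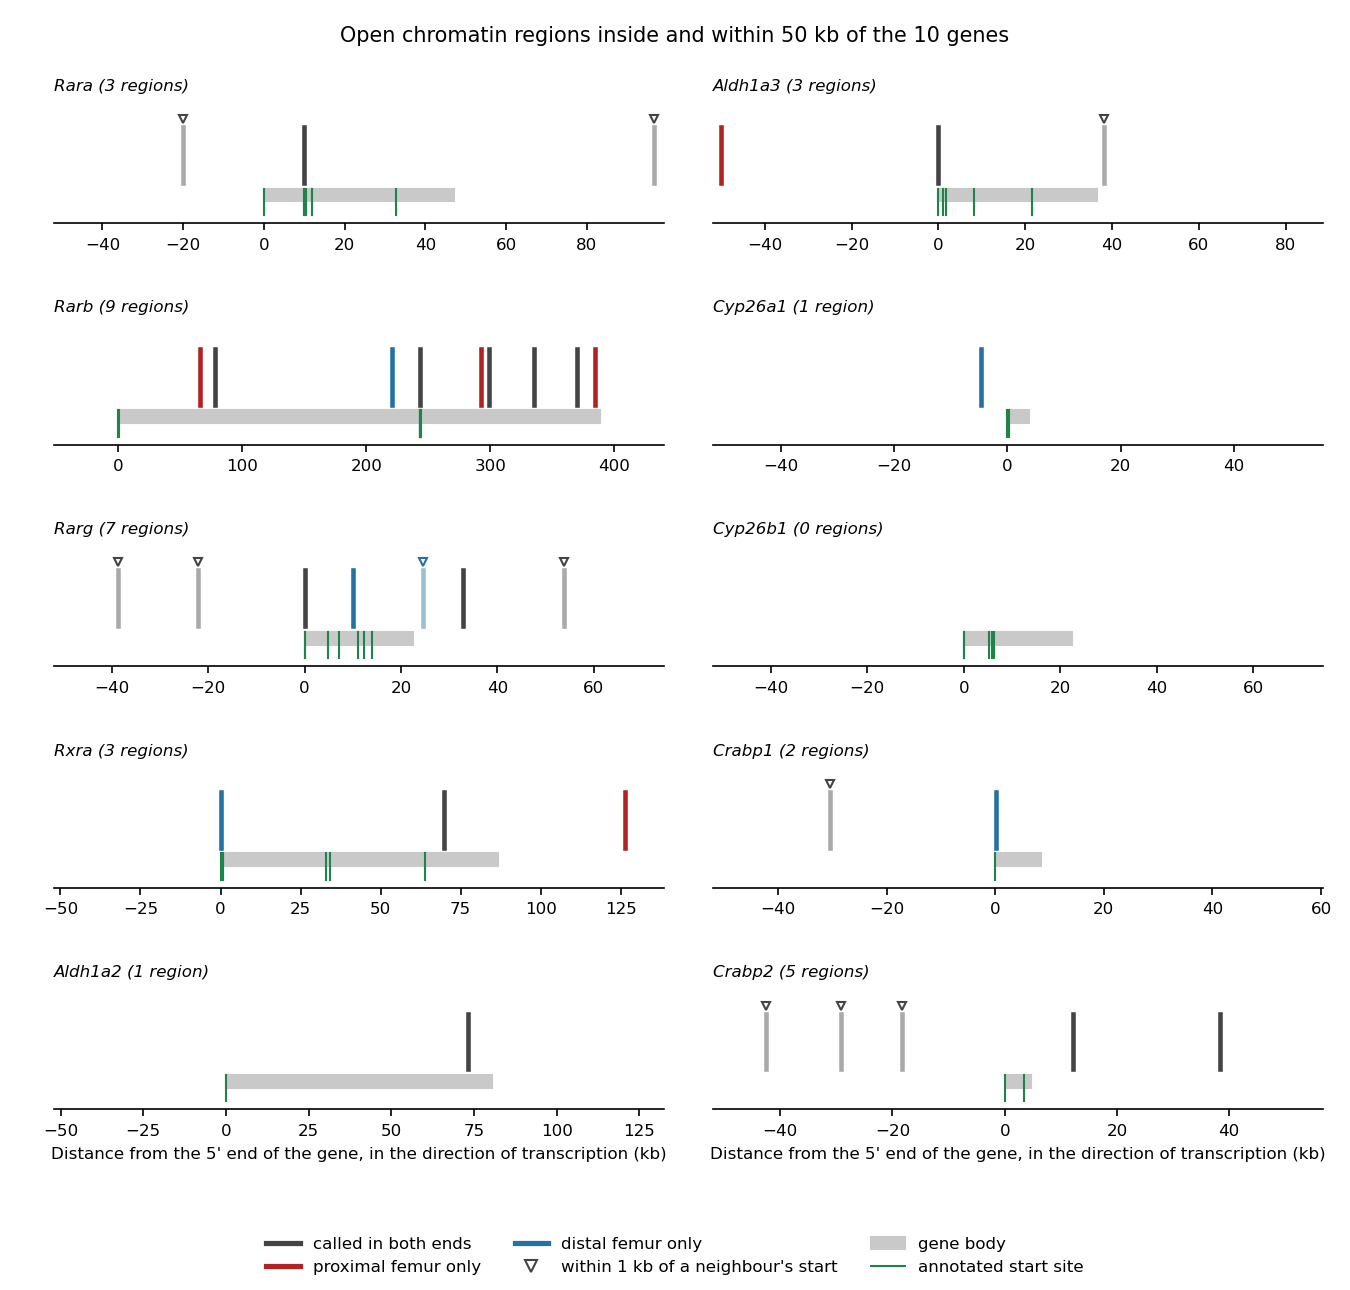
Map of the 34 regions, with 1 panel per gene. The horizontal axis is the distance from the 5′ end of the gene in kb, in the direction of transcription, and spans the gene and 50 kb on either side; each vertical bar marks the centre of a region (its height has no meaning) and its colour the femur end or ends that called it, paler bars under an open triangle are within 1 kb of a neighbour's start, the gray box is the gene body and green ticks are annotated start sites. Red, proximal-only bars are at Rarb (3), Rxra and Aldh1a3, blue, distal-only bars are at Rarb, Rarg (2), Rxra, Cyp26a1 and Crabp1, and Cyp26b1 has no bar.

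The sequences of the regions are shown first where they bear on the pathway's own binding sites. Direct repeats of the hexamer AGGTCA, with A or G allowed at the first base and G or T at the third, spaced by 1, 2 or 5 bases (DR1, DR2 and DR5, the classical arrangements bound by RAR and RXR), were searched on both strands. The 10 windows held 20 DR1, 20 DR2 and 12 DR5 matches, of which 1 of 52 lay inside a region. It was a DR5 in the promoter region of Rarb that was called in both ends, and it has the letters of the well known retinoic acid response element of that promoter. In all, 0.235% of regions held a DR5, and 0.903% of the 8418 DR5 matches on the autosomes lay in a region. A DR1 was held by 120 of the 32388 regions and a DR2 by 68, where the autosomes held 15877 and 25845 matches. The DR5 matches closest to start sites of the genes are given below, 5′ to 3′ with both hexamers in capitals and 6 bases on each side. A DR5 match of Rarg found only when G was also allowed at the fifth base of the hexamers is the last of them. Sequences were read from the mm10 reference, which is of another mouse strain than the animals used.
Rarb, minus strand, chr14:16575507-16575535, in the first exon 14 bp downstream of the Rarb-201 start: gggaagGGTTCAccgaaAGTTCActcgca
Cyp26a1, minus strand, chr19:37697770-37697798, repeat 6 bp upstream of the start: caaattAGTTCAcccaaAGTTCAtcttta
Cyp26a1, plus strand, chr19:37695903-37695931, repeat 1873 bp upstream of the start: ctgcagGGGTCAcaggcGGGTCAggctaa
Rara, plus strand, chr11:98960002-98960030, repeat 388 bp upstream of the Rara-202 start: caggcgAGTTCAgcaagAGTTCAgccgaa
Rarg, minus strand, chr15:102250811-102250839, repeat 471 bp upstream of the Rarg-206 start: ggtcagGGTTCAaagtgAGGTCAcggtat
Rarg with G allowed, minus strand, chr15:102247220-102247248, repeat 726 bp upstream of the Rarg-202 start: ggggccGGGTCAggaggAGGTGAgcgcgc
The Rarb match lay in a region of both ends and the Rarg match with G allowed in a distal-only region. Neither Cyp26a1 match lay in a region, and the nearest region was 4455 bp and 2588 bp away from them. The Rara match was 22156 bp and the other Rarg match 2696 bp from the nearest region. A match describes the letters only and does not show that a receptor was bound.

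A further set of sequences gives examples of single-end regions of each kind, chosen after their values were seen. Of the proximal-only regions, 4 of 5 held the heptamer TGACTCA or its reverse complement TGAGTCA, the site of the AP-1 family of transcription factors (Fos and Jun proteins). Stretches of 100 bases around it follow for 3 of these regions, on the strand of the gene, with the heptamers in capitals. All 3 lie outside annotated exons of the gene named.
Rarb intron, minus strand, chr14:16526280-16526379: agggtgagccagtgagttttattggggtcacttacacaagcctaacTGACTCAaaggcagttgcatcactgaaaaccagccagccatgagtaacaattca
Downstream of Rxra, plus strand, chr2:27802681-27802780: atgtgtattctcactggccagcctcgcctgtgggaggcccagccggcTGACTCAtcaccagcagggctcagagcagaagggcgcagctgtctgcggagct
Upstream of Aldh1a3, minus strand, chr7:66477662-66477761: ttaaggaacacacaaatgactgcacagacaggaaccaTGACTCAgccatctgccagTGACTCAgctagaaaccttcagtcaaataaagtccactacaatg
The Rarb and Aldh1a3 stretches held no CpG, and the Rxra stretch held 4. For comparison, the part of the distal-only Crabp1 promoter region that lies before the start site and the central 200 bases of the distal-only region upstream of Cyp26a1 follow, with every CpG in capitals.
Crabp1, plus strand, chr9:54764584-54764747: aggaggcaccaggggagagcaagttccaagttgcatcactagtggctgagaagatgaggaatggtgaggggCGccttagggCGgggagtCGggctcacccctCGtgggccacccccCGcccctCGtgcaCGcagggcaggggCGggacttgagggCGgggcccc
Upstream of Cyp26a1, plus strand, chr19:37693027-37693226: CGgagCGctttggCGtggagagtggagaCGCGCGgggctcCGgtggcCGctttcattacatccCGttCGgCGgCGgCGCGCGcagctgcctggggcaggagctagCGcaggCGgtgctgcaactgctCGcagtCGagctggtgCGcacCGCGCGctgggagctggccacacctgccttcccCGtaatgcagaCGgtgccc
The first of these held 9 CpG in 164 bases and the other 25 CpG in 200 bases.

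Over whole regions, an AP-1 heptamer was found in 10 of 34 (29.4%), beside 33.4% of all regions. The 4 of 5 proximal-only regions compare with 45.5% of all proximal-only regions, and 2 of 6 distal-only regions compare with 29.5% of all distal-only regions. It was found in 4 of the 23 regions called in both ends (17.4%), beside 31.7% of all shared regions. The median GC content was 47.0% in the 5 proximal-only regions, 65.2% in the 6 distal-only regions and 57.5% in the 23 shared regions, beside 46.6%, 49.7% and 53.7% over all regions of each kind. The groups overlapped: the proximal-only values ran from 45.0% to 60.5% and the distal-only values from 42.0% to 67.4%. The distal-only regions were also nearer to start sites, with 4 of 6 within 1 kb of a start site of some gene, where 24.1% of all distal-only regions lay. The part that this nearness had in their GC content was not tested.

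**Figure D2:**
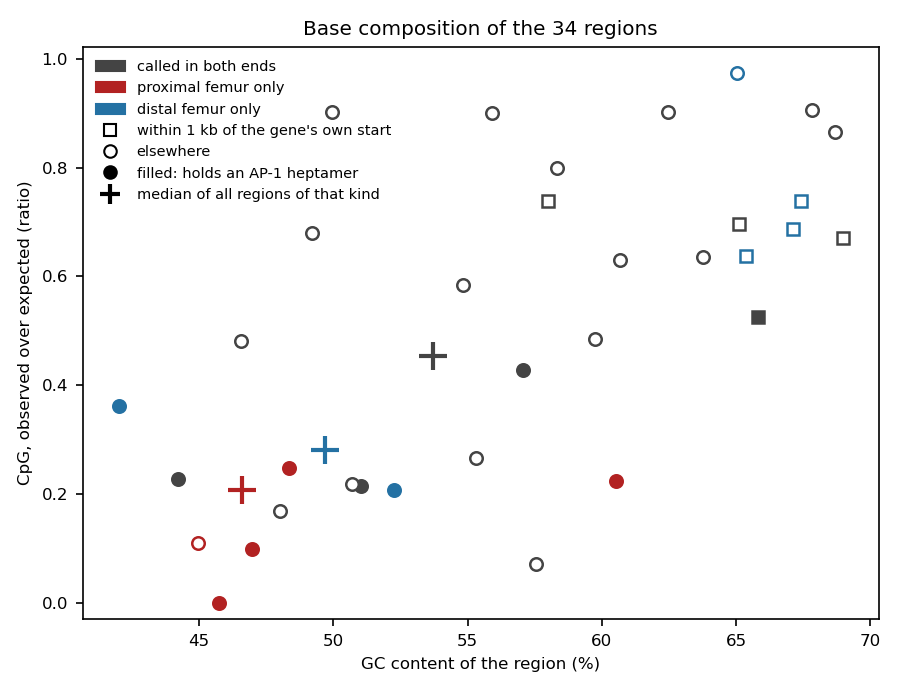
GC content of each of the 34 regions in percent (horizontal) against the ratio of observed to expected CpG (vertical). Colours give the end that called the region, squares lie within 1 kb of the gene's own start site and circles elsewhere, filled symbols hold an AP-1 heptamer, and crosses are medians over all regions of that colour; 4 of the 6 distal-only regions have over 65% GC, and 4 of the 5 proximal-only regions have under 49% GC.

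The receptors come first. All 4 had a region at a start site, in both ends for Rara, Rarb and Rarg and only in the distal end for Rxra. Over the 10 genes, 6 had such a promoter region (4 in both ends, 2 only in the distal end), against 59.1% of 20807 autosomal protein-coding genes. The 2 genes with a distal-only promoter, Rxra and Crabp1, stood against 2.73% of those genes.

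Rara encodes the most widely expressed of the retinoic acid receptors. Its promoter region, chr11:98937434-98937852, was 419 bp wide in the proximal list and 392 bp in the distal list, and it covered the starts of transcripts Rara-204 and Rara-201, whose untranslated first exons it overlapped. The widths differed little between the ends, and the region was narrow, at percentile 5.3 of shared regions. The outermost start of the gene (Rara-203) was 9616 bp from the nearest proximal peak, and the start of Rara-202 was 22560 bp from it. The remaining 2 regions of the window were the promoters of Cdc6 and Top2a, both called in both ends.

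Rarb, itself a textbook target of retinoic acid, spans 388318 bp of chromosome 14 on the minus strand. It held 9 regions, which put it at percentile 97.2 of protein-coding genes, but at 1.84 regions per 100 kb of window its density was below the median of 2.07. The promoter region, chr14:16574892-16575981, was 1090 bp wide in the proximal list and 1043 bp in the distal list and covered 5 annotated starts, among them those of Rarb-201 and Rarb-207, as well as a start of the neighbouring Gm48162. It is the region that holds the DR5 printed above. The far upstream starts of Rarb-204 and Rarb-203, at position 16819005 and 16819156, had no peak nearby: the nearest proximal peak was 65421 bp and the nearest distal peak 77414 bp from the former. A region was thus called in both ends at the internal promoter of the gene and in neither end at the outer one.

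The other 8 regions of Rarb lay in its introns. All 4 single-end regions that lay inside a gene and over 1 kb from its starts were among these 8. The proximal-only regions were chr14:16434346-16434743 (398 bp), chr14:16526125-16526488 (364 bp) and chr14:16752678-16753584 (907 bp). The last was wide, at percentile 95.7 of all proximal-only regions. The first also lies in the last exon of the oppositely transcribed Top2b, in its 3′ UTR, and the Top2b start site is the nearest to it, at 8918 bp. The distal-only region was chr14:16597951-16598589 (639 bp), 22124 bp from the nearest start of Rarb. The proximal-only region at 16526125 lay 6190 bp from a distal peak and the distal-only region 21970 bp from a proximal one.

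The widths of the shared regions were also compared between the lists. The region chr14:16740928-16741952 was 1025 bp wide in the proximal list and 636 bp in the distal list, a ratio of 1.61. At chr14:16519442-16520081 the widths were 640 bp and 410 bp, a ratio of 1.56. These were the only 2 of 22 shared regions of the pathway, with 1 peak from each list, that were over 1.5 times as wide in 1 list, against 6.20% of all such regions, so that their number is near the background. Both were wider in the proximal list, as were 1005 of all such regions against 450 that were wider in the distal list. Both held an AP-1 heptamer. The remaining shared introns, chr14:16448553-16449115 and chr14:16483576-16484406, had ratios of 1.03 and 0.96. Over all 22, 13 were wider in the proximal list and 9 in the distal list, and the median ratio was 1.04, beside 1.02 over all shared regions. Width is no measure of height, and the part of library depth in it was not tested.

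**Figure D3:**
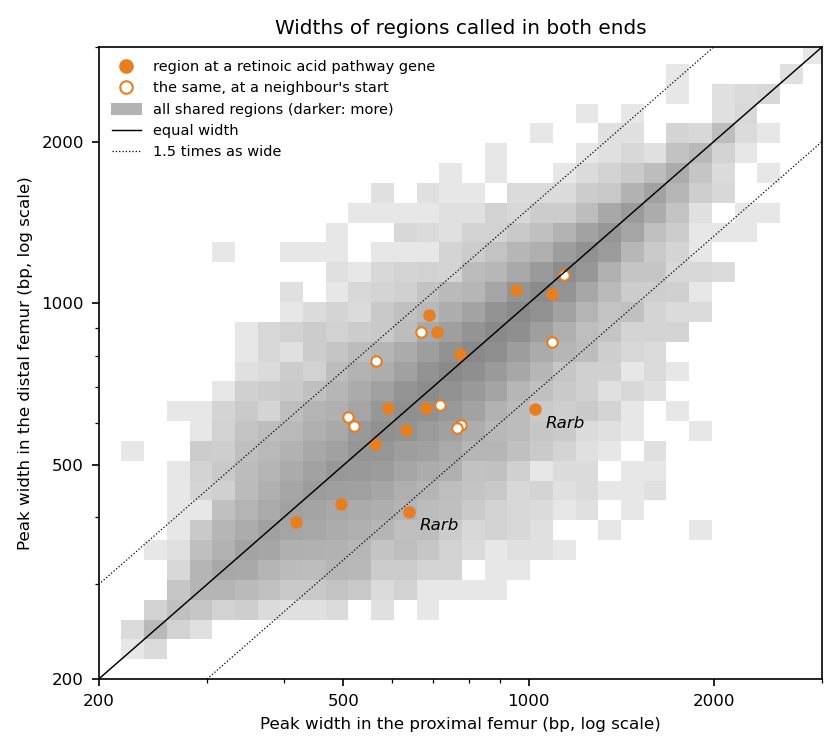
Width of the proximal peak (horizontal, bp, log scale) against that of the distal peak (vertical, bp, log scale) for the 22 shared regions of the pathway with 1 peak from each list, in orange, open where the region is at a neighbour's start. Gray squares give the number of all 23450 such regions, darker for more, the solid line is equal width and the dotted lines are 1.5 times as wide; only the 2 labelled introns of Rarb lie beyond a dotted line, on the proximal side.

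Rarg encodes the receptor that is prominent in cartilage. It lies on the minus strand of chromosome 15 among close neighbours, and its window held 7 regions, or 5.71 per 100 kb. The region at its outer starts (Rarg-201 and Rarg-205), chr15:102257025-102258030, was called in both ends, with a width of 689 bp in the proximal list and 951 bp in the distal list. Inside the gene, chr15:102246931-102248121 was called only in the distal end. At 1191 bp it was at percentile 99.2 of the widths of distal-only regions. It lay 431 bp upstream of the start of Rarg-202, a shorter transcript of the receptor with its own promoter, and held 97 CpG. The nearest proximal peak was 8904 bp away. A further distal-only region, chr15:102232749-102233186, lay past the 3′ end of Rarg, 805 bp from a start of Itgb7. The flank also held a shared region in exons of Itgb7, 9969 bp from Rarg. The promoters of Csad and Zfp740, of Mfsd5 and of Espl1 and Gm49479 made up the rest, all called in both ends.

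Rxra encodes an RXR, a partner of the RARs, and its promoter was on the distal list only. The region, chr2:27676096-27677114, was 1019 bp wide, at percentile 97.3 of distal-only regions, with 79 CpG. It covered the start of Rxra-204, and the starts of Rxra-201 and Rxra-206 were 87 bp and 148 bp from it. The nearest proximal peak was 68789 bp away, inside the gene. That peak belongs to chr2:27745816-27746701, an intronic region called in both ends (710 bp proximal, 886 bp distal). The proximal-only region chr2:27802333-27802874 (542 bp) lay 39376 bp downstream of the gene and held an AP-1 heptamer, shown above. Rxra and Rarb were the only genes of the 10 with shared, proximal-only and distal-only regions. Of the other RXR genes, Rxrb and Rxrg each had a promoter region called in both ends.

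The synthesis enzymes had 1 region (Aldh1a2) and 3 regions (Aldh1a3), beside a median of 3 per protein-coding gene window. Aldh1a2, the main retinoic acid synthase of the early embryo, had none at its start site, and the nearest was 72917 bp away. That was its single region, the intron region chr9:71288706-71289222, called in both ends with 496 bp in the proximal list and 424 bp in the distal list. Aldh1a3, a related dehydrogenase, had a promoter region in both ends, chr7:66427150-66428207, with widths of 954 bp and 1058 bp. A shared region 1329 bp past its 3′ end was within 1 kb of a start of Lrrk1. The proximal-only region chr7:66477468-66477951 (484 bp), with 2 AP-1 heptamers, lay 49951 bp upstream, with Gm44753 as its nearest start site at 35582 bp, and was the region nearest to the limit of the rule. Just outside the limit lay a distal-only region 50330 bp downstream of Rarb and a shared region 50569 bp from Aldh1a3.

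Neither breakdown enzyme had a region at a start site. Cyp26b1, the Cyp26 enzyme of the distal limb bud, had no region inside or within 50 kb, as 13.6% of protein-coding genes do. The nearest, called in both ends, lay 66452 bp downstream of the gene, and upstream the first lay at 181817 bp. At Cyp26a1, a retinoic acid target gene, the start site was 146835 bp from the nearest proximal peak and 4477 bp from the nearest distal peak. This distal-only region, chr19:37692933-37693321 (389 bp), lies wholly within exon 6 of the neighbouring Cyp26c1, mostly in its coding sequence (372 bp), and holds 40 CpG. It is the only region of the window, and the lists do not tie it to either gene.

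The binding proteins, which carry retinoic acid in the cytoplasm, differed from each other. Crabp1 had a promoter region only in the distal end, chr9:54764584-54765146 (563 bp), which covered its start and reached into its coding first exon. The nearest proximal peak was 29818 bp away, at the promoter of Wdr61, which was called in both ends. Crabp2, which delivers retinoic acid to the receptors, had 5 regions in its window, all called in both ends, but none within 8433 bp of its own starts. Of these, 3 were promoters of Hdgf, of Mrpl24 and of Rrnad1 and Isg20l2, and 2 lay downstream at 7201 bp and 33347 bp.

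Other genes of the pathway were taken from a list of 18. Of these, 12 had a promoter region (66.7%), 11 in both ends and Ncoa1, a receptor coactivator, only in the proximal end (chr12:4476310-4477610, 1301 bp). Over all autosomal protein-coding genes, 59.1% had a promoter region and 1.34% had one only in the proximal end. The share of the 18 is thus near the background. The cofactors all had a promoter region (6 of 6), beside 3 of 7 genes that handle retinol and retinal and 3 of 5 further enzymes, receptors and carriers. Those without a promoter region included the retinol receptor Stra6, the carotene-cleaving enzyme Bco1, the synthesis enzyme Aldh1a1 and the breakdown enzyme Cyp26c1, whose starts were between 7352 bp and 74088 bp from a region. Dhrs3, a retinal reductase, had none by the 1 kb limit, with its nearest region 1055 bp from its start. Single-end regions were found at Rdh10 and Ncoa3 (all proximal-only) and at Rxrb, Fabp5, Ncor1 and Ncoa2 (all distal-only). Of the 2 at Rxrb, 1 lay at the start of Col11a2, a cartilage collagen gene.

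Markers were checked against the label of the cells as chondrocytes. All 8 chondrocyte markers had a promoter region, 6 in both ends and Col11a2 and Comp only in the distal end. None of 4 osteoblast markers, none of 3 blood markers and none of 3 joint and perichondrium markers on autosomes had one. Perichondrium was part of the tissue, so a missing region does not show that such cells were absent. Of 4 muscle markers Actn2 had one in both ends, of 4 endothelial markers Kdr had one in both ends and Tek one only in the distal end, and of 4 epidermis markers Krt1 had one only in the distal end. The distal-only promoters of Rxra and Crabp1 stood beside distal-only promoters of genes of cartilage, endothelium and epidermis, and the part of cell composition or library depth in them was not tested. An open promoter does not show that a gene is expressed.

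**Figure D4:**
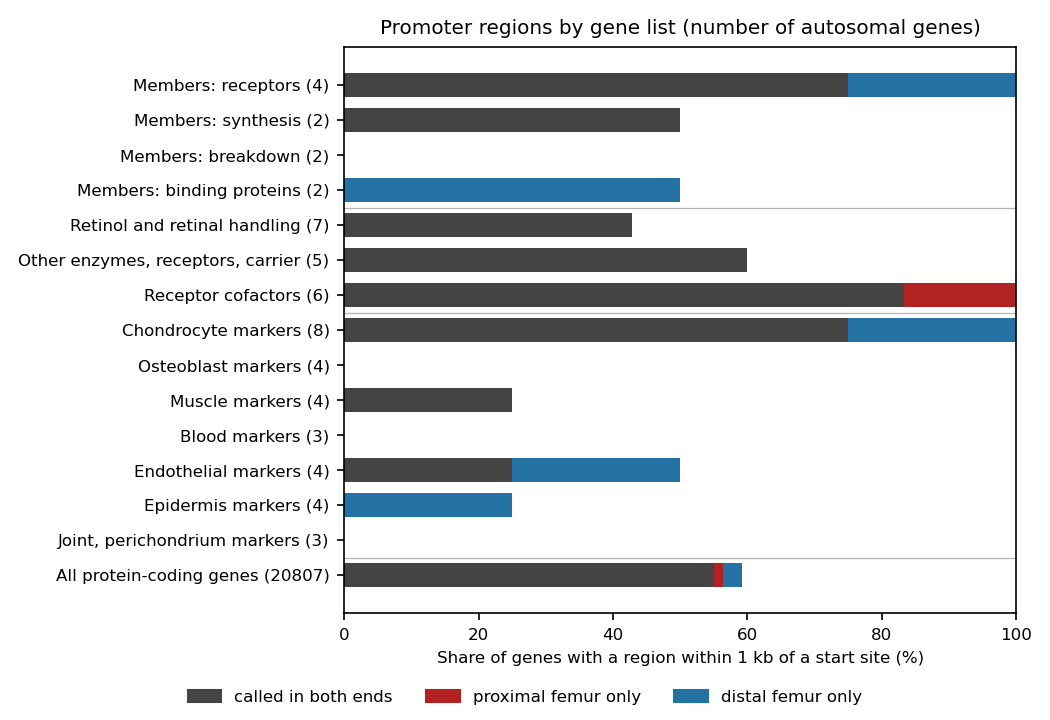
Share of autosomal genes in percent (horizontal) with a region within 1 kb of a start site, by gene list, with the number of genes in parentheses and colours for the femur end or ends in which the region was called. Receptors, receptor cofactors and chondrocyte markers have a region at every gene, breakdown enzymes and osteoblast markers at none, and all 20807 protein-coding genes at 59.1%.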

How the data were processed

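Per the labels and the methods of the study, the authors aligned the ATAC-seq reads to mm10 with Bowtie2 2.2.8, called peaks with MACS2 (2.1.1 in the submitters' processing notes) and combined the 2 biological replicates of each femur end by IDR at 0.05. The deposited lists used here hold positions only. Reads and library depth were not analysed here.

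Regions, windows and start sites were computed with Python 3.11.15, NumPy 2.4.6 and SciPy 1.17.1 from the GENCODE mouse release 21 annotation. Regions with their nearest edge within 1 kb of a transcript start site were called promoter regions, and shares have 95% Wilson intervals that cover counting error only. Background shares were taken over regions and protein-coding genes of the 19 autosomes. Motifs were searched in mm10. The steps were tested on simulated data. The members, the gene lists and the rules were chosen with earlier results of these data known. All members are named. Of the other pathway genes, those without a promoter region or with a single-end region are named, and Rxrg is named beside Rxra. A neighbour is named where a region lies at its start or its start is nearest to a single-end region. Results for some further items are not reported here. Other windows, overlaps, promoter limits, peak widths and motif spellings were tried.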

Additional observations from a re-analysis of the deposited data

How the results depend on the processing

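With 1 list per end and no scores, no replicate could be left out and no stricter threshold applied, so peak width stood in for one. No paired analysis was possible because the lists combine the replicates. The 34 regions became 53 within 100 kb, 17 when each list was cut to its wider peaks (median width or more), and 15 with only regions whose nearest start site is a member's. The share called in 1 end became 64.7% with the wide peaks, which by construction drops the narrower peak of a shared region, and 53.3% with the nearest-start rule. The nearest-start rule leaves out the regions at neighbours' starts, of which 10 of 11 were called in both ends. Proximal-only regions fell to 3 within 20 kb and to 3 with the nearest-start rule. Regions near a start site numbered 11 within 20 kb, 30 within 100 kb and 7 with the nearest-start rule. Regions with a direct repeat became 2 when G was allowed at the fifth base. The other 26 of 37 alternative values stayed within the limits set for a change, including all the counts of distal-only regions. An equal count need not hold the same regions. With the wide peaks, narrow single-end regions drop out, and a shared region that lost its narrower peak counts as single-end. The unchanged counts of proximal-only and distal-only regions in that setting thus do not show that the same calls remained. Genes with a promoter region numbered 6 in every alternative except the wider peaks, which gave 4, and the end in which each promoter was called was not recomputed. The depth of the libraries, which limits what a missing peak can show, was not analysed here.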
